A study of Mus musculus with 8 samples.

Results

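The Reg genes encode small secreted proteins with a C-type lectin fold, and 7 mouse members were followed here in the small intestine before birth: Reg1, Reg2, Reg3a, Reg3b, Reg3d, Reg3g and Reg4. The members were all probes for these genes, by the gene name in the array files, that were not control spots. This gave 7 probes for 7 genes among 55681 distinct probes and 36161 gene names, with 1 probe and 1 spot for each gene on each array. A search of the array's RefSeq accessions found the same 7 probes and no others. Of the 7, 6 were bright enough to be tested between the groups, and Reg2 was not.

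RNA from the whole small intestine of 8 mouse embryos at stage E18.5 was hybridised in 1 colour to Agilent arrays, 1 embryo to an array. Controls (4 embryos) carried floxed Rfx6 with no Cre named in the labels: replicates 1, 3 and 4 were Rfx6 fl/+ with 1 floxed allele, and replicate 2 was Rfx6 fl/fl with 2. Mutants (4 embryos) were Rfx6 fl/fl Ngn3-cre, in which Cre, under Ngn3, acts in endocrine progenitors and their progeny, so most cells of the gut wall keep Rfx6. The question was which genes Rfx6, a transcription factor of endocrine cells, regulates in the gut. Cre is named for mutants only, so the effect of Cre and that of Rfx6 loss cannot be told apart. For mutant replicates 2, 3 and 4 the description field gives a different Rfx number, while the titles say Rfx6 and were used. In RNA of whole tissue, fewer cells of a type and less RNA per cell cannot be told apart.

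As background, Reg1 and Reg2 were first known from the pancreas, where acinar cells secrete them and where they rise with injury or islet regrowth. Reg3b and Reg3g are antibacterial lectins of the gut epithelium, induced by microbes and by the cytokine interleukin-22, and Reg3g binds the cell wall of Gram-positive bacteria. Reg3a and Reg3d are further members of the Reg3 group. Reg4 is a marker of secretory cells of the gut, including goblet and endocrine cells.

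Of the 7 genes, 6 lie side by side on chromosome 6, and Reg4 lies apart on chromosome 3. In the RefSeq gene table (GRCm38.p6, used for names and order) the order on chromosome 6 is Reg3b, Reg3d, Reg3a, Reg2, Reg1 and Reg3g. A predicted gene, Gm52853, stands between Reg1 and Reg3g and is the only other gene in that stretch. On mm9, the build of the array files, the 6 probes spanned 93.2 kb. By the array annotation, the probes of Reg3b (78323323 to 78323382), Reg3a (78333635 to 78333694), Reg2 (78357959 to 78358018) and Reg1 (78378527 to 78378586) follow the plus strand of chromosome 6. Those of Reg3d (78325868 to 78325927) and Reg3g (78416420 to 78416479) follow the minus strand. The Reg4 probe runs from 98037005 to 98040251 on chromosome 3, a span of 3247 bases for 60 bases of probe, so it crosses at least 1 intron.

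The probes decide what each value measures, and those of the genes on which the results turn are shown from the array files, 5′ to 3′. The Reg4 probe, which had 1 reading frame with no stop codon, is printed whole, and the others as their first 30 bases.

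Reg1 probe: ggaccatctatcaaaagcaaattagatcct

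Reg2 probe: acagtactcctttgtctgcaagttcagagc

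Reg3d probe: gtgtattctctggggactctggcctaagga

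Reg4 probe: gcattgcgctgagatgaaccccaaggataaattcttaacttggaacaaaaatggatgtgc

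The 7 probes were unlike each other. Over all 21 pairs, the best ungapped overlap held 18 to 26 identical bases of 60, and the longest run shared by any pair was 7 bases. The Reg1 and Reg2 probes had 20 identical bases in their best overlap and a longest shared run of 5.

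The stretch just before each start of transcription is given for the 6 neighbours on chromosome 6, since they lie side by side and differ in what stands near the start. The lines hold the 80 bases before the start from RefSeq (GRCm38.p6), 5′ to 3′ on the strand of the gene, with TATAAA in capitals.

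Reg1, chr6:78425903-78425982, plus strand: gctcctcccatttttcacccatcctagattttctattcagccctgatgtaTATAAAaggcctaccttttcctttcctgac

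Reg2, chr6:78405075-78405154, plus strand: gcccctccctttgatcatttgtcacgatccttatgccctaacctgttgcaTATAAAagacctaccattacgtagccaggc

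Reg3b, chr6:78370805-78370884, plus strand: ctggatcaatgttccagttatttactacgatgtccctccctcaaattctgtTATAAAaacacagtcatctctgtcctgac

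Reg3g, chr6:78468875-78468954, minus strand: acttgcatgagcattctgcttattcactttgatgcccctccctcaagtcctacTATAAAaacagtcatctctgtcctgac

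Reg3a, chr6:78380629-78380708, plus strand: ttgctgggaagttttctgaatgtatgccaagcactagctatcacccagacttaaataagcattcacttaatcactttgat

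Reg3d, chr6:78378866-78378945, minus strand: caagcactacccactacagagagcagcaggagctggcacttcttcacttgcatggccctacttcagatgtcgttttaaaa

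Aligned over the 250 bases before the start, Reg3b and Reg3g were identical at 68.4% of aligned columns and Reg1 and Reg2 at 56.9%. The other 13 pairs on chromosome 6 lay between 45.1% and 52.7%, and the 6 pairs with Reg4 between 44.9% and 48.2%. The motifs below were searched on both strands in windows of 300 bases, 250 before and 50 after the start. TATAAA was found in 4 of the 7 Reg windows (Reg1, Reg2, Reg3b and Reg3g), against 13.6% of 32851 windows in the table. CACCTG, an E-box, was found in 5 (all but Reg1 and Reg3g), against 20.2%. TTCNNNGAA, the form of site that STAT factors can bind, was found in 2 (Reg3b and Reg3d), against 8.30%. The motifs can overlap by chance, and these are matches of letters only.

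Each level is the processed intensity of a spot divided by the 75th percentile of its array, in log2, so that 0 is a spot at that percentile. They can be set against each other across arrays for 1 probe, not between probes. Across the arrays the 75th percentile was 788 to 1027 intensity units, and the share of probes well above background was 59.7% to 69.9%. Mutant replicate 1 stood apart: its correlation with the remaining arrays, across tested probes, averaged 0.975, where each of the other 7 averaged 0.989 to 0.990. Of the 15 genes of an endocrine list, 9 passed as lower in mutants (Gip, Ghrl, Sst, Nts, Gcg, Isl1, Cck, Pyy and Sct), and Ghrl, the ghrelin gene, was at 3.17 to 3.76 in controls and at -1.60 to -1.14 in mutants. Of the 9, Isl1 met the filter through the controls alone, well above background on 4 of 4 control arrays and 0 of 4 mutant arrays. Gip was so on 4 of 4 and 1 of 4. Their mutant levels below background are upper bounds. The mean was higher in mutants for 5 of the 15, of which 0 passed. The probe of the targeted gene, Rfx6, stood at -3.32, -3.20, -3.48 and -2.93 in controls and at -5.52, -3.37, -3.02 and -3.02 in mutants (difference -0.50, SE 0.52, limma adjusted p = 0.828). It was low in mutant replicate 1 alone, where it was not well above background. The sources used here do not say whether this probe falls within the floxed exons, so it does not check the labels. All 10 genes of an enterocyte list and all 11 of a goblet list were tested, that is, above background, as in gut epithelium.

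No Reg probe passed the test between controls and mutants after adjustment, and Reg3d was the only one whose unadjusted interval left out 0. Of the 6 tested, 0 passed an adjusted p of 0.05 (limma, adjusted over all 35472 probes tested), against 0.0423% of all tested probes. Adjusted p-values ran from 0.828 to 0.958. At an unadjusted p of 0.05, 1 of 6 passed (Reg3d), against 5.05% of all, and the same 1 of 6 had groups that did not overlap, against 4.38%. The mean was higher in mutants for 6 of 6, against 55.4% of all tested probes. That count was 3 of 6 without mutant replicate 4, and 4 of 6 without control replicate 2, without mutant replicate 3 or within slide row 1. The median difference was 0.13 for the 6 and 0.02 for all, in log2 units. In none of the 20 alternative settings was a Reg probe called, and the lowest adjusted p of a Reg probe was 0.493, with array weights.

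**Figure D1:**
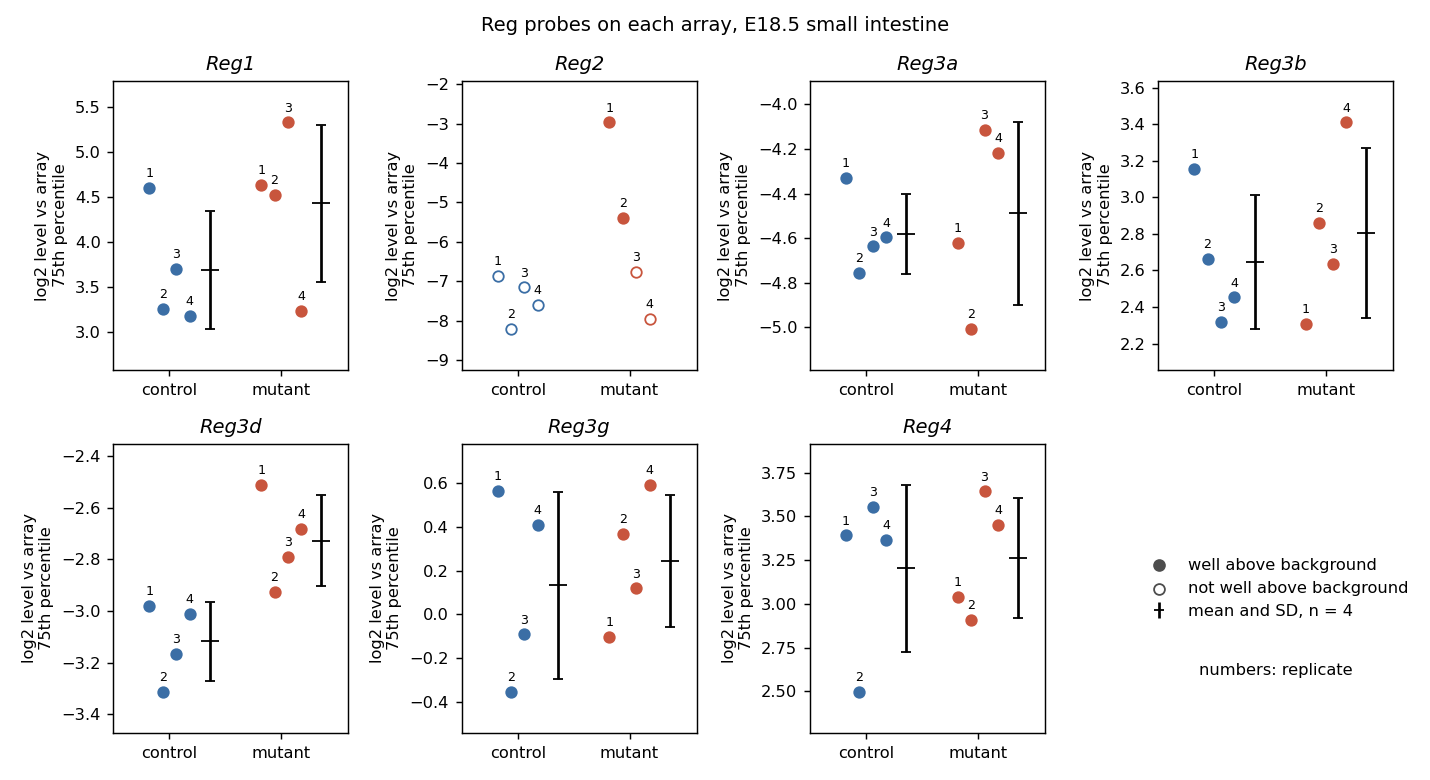
Level of each Reg probe on each of the 8 arrays (y axis, log2 over the array's own 75th percentile; each panel has its own axis), with controls in blue and mutants in red, replicate numbers above the points, open points for spots not well above background, and bars for the mean and SD of 4 arrays. Control and mutant points overlap for each gene except Reg3d, where the 4 mutants lie just above the 4 controls, and Reg2 is open in all 4 controls and in mutant replicates 3 and 4.

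Reg1, the pancreatic stone protein, varied most between embryos among the tested members. Its levels in control replicates 1 to 4 were 4.60, 3.26, 3.71 and 3.19, and in mutant replicates 1 to 4 they were 4.63, 4.52, 5.33 and 3.24. Control replicate 1 stood level with mutant replicates 1 and 2, while mutant replicate 4 lay among the low controls, so the groups overlapped. The highest and lowest arrays differed 4.40-fold. The group means were 3.69 ± 0.65 and 4.43 ± 0.87 (SD, n = 4 each). Mutants were thus 0.74 log2 units above controls (SE 0.46, 95% interval -0.31 to 1.79, limma adjusted p = 0.828). As a fold this is 1.67, with an interval of 0.805 to 3.47, so that values on both sides of no change lie within it. The within-group SD of Reg1, 0.77, was larger than that of 96.0% of tested probes, whose median was 0.20. The difference was 0.64 within slide row 1 (2 arrays a group) and 0.84 within row 2. It was 1.14 without mutant replicate 4 and 0.44 without mutant replicate 3.

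Reg2, a close relative of Reg1, was not well above background on any of the 4 control arrays, where it stood at -6.86, -8.21, -7.16 and -7.59. In mutants it stood at -2.97 in replicate 1 and -5.40 in replicate 2, both well above background, and at -6.75 and -7.95 in replicates 3 and 4, which were not. The signal was thus seen in 2 of 8 embryos, both mutants and both in row 1 of the slide, and 1 of them is the array that stood apart. Where a probe is below background its level is only an upper bound. Against a control reference of -5.92 (the mean over the 4 arrays of the higher of the probe's own level and the lowest level well above background), mutant replicate 1 was 7.73-fold higher and mutant replicate 2 1.43-fold. This reference is not a strict bound, since brighter spots can also fail the flag. On control replicate 4 another probe at -4.94 was not well above background. No fold is given for the mutant group, since 2 of its 4 levels are themselves upper bounds. Being above background on fewer than 4 arrays, Reg2 was left out of the test. With no filter on dim probes its difference was 1.69 (SE 0.96, limma adjusted p = 0.959). Without mutant replicate 1 the difference was 0.75, less than that by over 1.5 times.

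Reg1 and Reg2 are acinar genes in the pancreas, and the levels of acinar digestive enzymes are therefore given beside them. Of 24 acinar genes, 20 were tested and 0 passed. The mean was higher in mutants for 18, against 55.4% of all tested probes, and the groups did not overlap for 9, against 4.38%. The median difference was 1.06, against 0.02 over all tested probes. Cela2a, Try4 and Try5 are among the 9 but met the filter through the mutants. They were well above background on 4 of 4 mutant arrays and on 0, 1 and 1 of 4 control arrays. The summed linear level of the list, in units of the 75th percentile, was 187 to 222 on control arrays and 208 to 302 on mutant arrays. Most of it was Spink3, a trypsin inhibitor (180 to 216 and 194 to 288), and without Spink3 the sum was 6.29 to 8.16 and 8.84 to 25.2. Ptf1a, the transcription factor that defines acinar cells, was not well above background on any array. Those with the largest differences among the tested were Amy2a5, an amylase (6.09), Try5 (4.81) and Try4 (4.63), both trypsins of near-identical genes, whose probes may share signal, and each above background on 1 of 4 control arrays, with limma adjusted p of 0.196, 0.0793 and 0.182.

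The acinar genes did not all have 1 order among the mutants. Of the 20 tested, 13 were highest in mutant replicate 4, 5 in mutant replicate 1 and 2 in mutant replicate 3, and 17 were lowest in mutant replicate 2. Amy2a5 stood at -5.14, -6.64, -1.88 and -4.31 in control replicates 1 to 4, the second of them not well above background, and at 1.09, 0.16, 1.83 and 3.29 in mutant replicates 1 to 4. Pnliprp2, a lipase-related protein, stood at -1.28, -2.17, -1.34 and -2.50 in mutant replicates 1 to 4. It was the only 1 of the 20 tested acinar genes that was lowest in mutant replicate 4, as Reg1 was. Pnlip, the pancreatic lipase, was above background on 2 of 8 arrays, control replicate 4 and mutant replicate 1, and was not tested. Its levels were -7.36, -8.10, -7.96 and -3.63 in control replicates 1 to 4. In mutant replicates 1 to 4 they were -5.34, -6.69, -7.58 and -7.84. The order among the mutants was that of Reg2, but most of these levels were below background. Pnlip was highest in control replicate 4, where Reg2 was not well above background (-7.59). The part of acinar RNA in the Reg1 and Reg2 values was not tested.

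**Figure D2:**
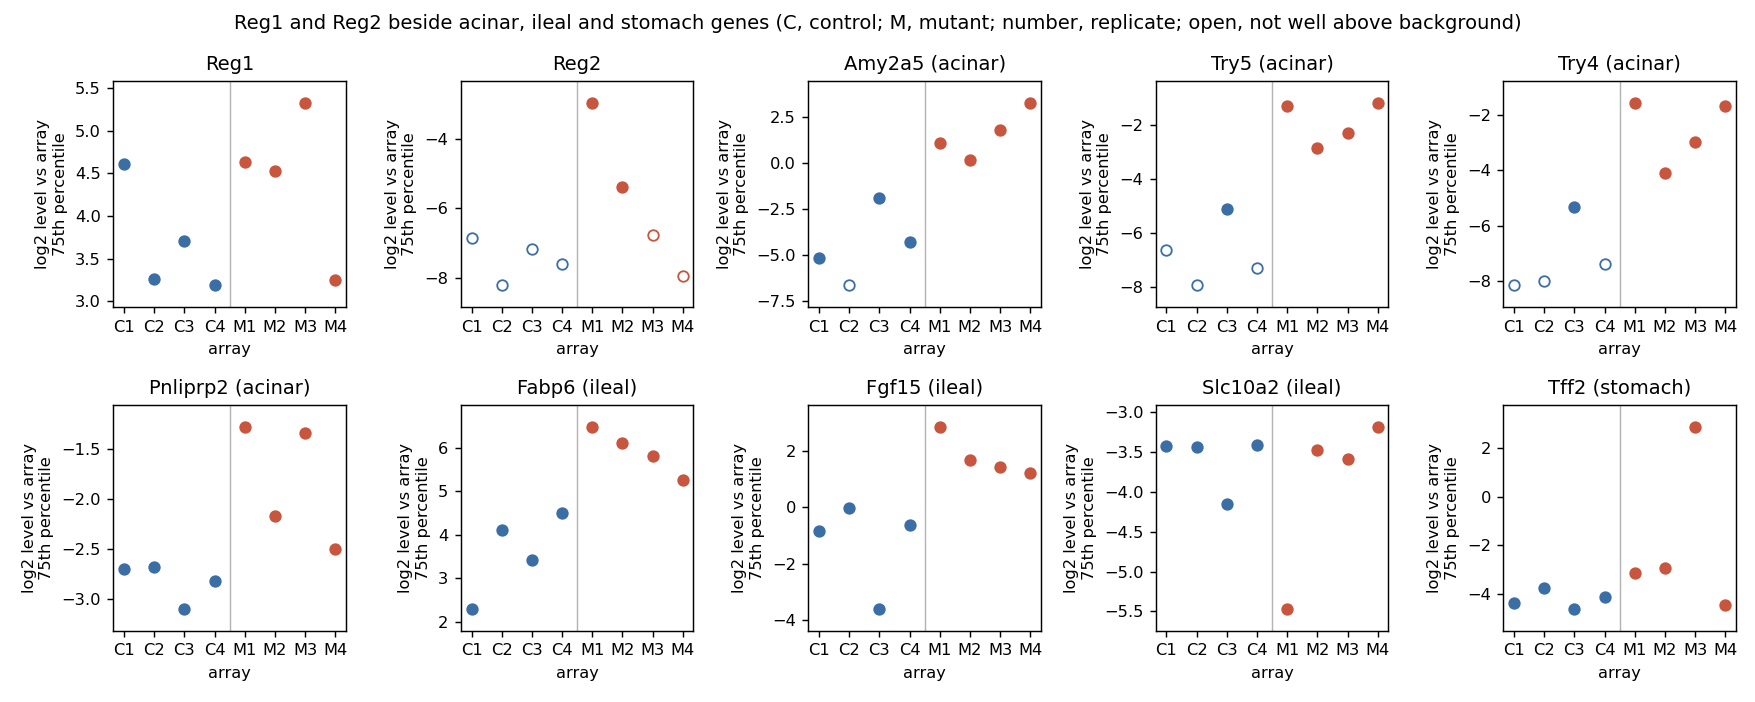
Levels on the 8 arrays (x axis, C for control and M for mutant with the replicate number; y axis, log2 over the array's own 75th percentile, a separate axis per panel) of Reg1, Reg2, 4 acinar genes, 3 ileal genes and 1 stomach gene, with open points for spots not well above background. Among the mutants Amy2a5 is highest in M4 (3.29) and Pnliprp2, alone of the 20 tested acinar genes, is lowest there (-2.50). Also among the mutants, Fabp6 and Fgf15 are highest and Slc10a2 lowest in M1, and Tff2 is high in M3 alone (2.89).

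Of 9 genes that mark the proximal or distal gut, all were tested, 0 passed, 5 had a higher mean in mutants, and the median difference was 0.16. The groups did not overlap for 2 of them, against 4.38% of all tested probes. Fabp6, the bile acid binding protein of ileal enterocytes, was at 2.30 to 4.50 in controls and 5.25 to 6.48 in mutants (difference 2.33, SE 0.47, limma adjusted p = 0.378). Fgf15, the ileal hormone that bile acids induce, was at -3.61 to -0.03 in controls and 1.21 to 2.87 in mutants (3.06, SE 0.74, limma adjusted p = 0.609). Both were highest in mutant replicate 1 (6.48 and 2.87), the array that stood apart and on which the Rfx6 probe was lowest (-5.52). Slc10a2, the ileal bile acid transporter, was lowest on that array (-5.47) and at -4.15 to -3.18 on the other 7 (difference -0.32, limma adjusted p = 0.861). Tff2, a trefoil peptide of the stomach, stood at 2.89 in mutant replicate 3 and at -4.64 to -2.94 on the other 7 arrays. Gkn3 stood at 2.33 on that array and at -2.43 to -1.88 on the other 7, and Tff1 was well above background there alone (-0.17). Mutant replicate 3 also had the highest Reg1 (5.33), the highest Reg3a (-4.11) and the highest Reg4 (3.64). The next highest level was -4.22 for Reg3a (mutant replicate 4) and 3.55 for Reg4 (control replicate 3). Reg2 (-6.75), Reg3b (2.64), Reg3d (-2.79) and Reg3g (0.12) were not highest in mutant replicate 3. Summed over the stomach list, of which 5 of 11 genes were tested and Gkn2, Gif and Sox2 were above background nowhere, the linear level was 0.509 to 0.557 on control arrays and 0.463 to 13.6 on mutant arrays. The part of these in the Reg values was not tested.

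Among the antibacterial members, Reg3b stood at 3.16, 2.66, 2.32 and 2.45 in control replicates 1 to 4 and at 2.31, 2.86, 2.64 and 3.41 in mutant replicates 1 to 4. Both the lowest and the highest array were mutants, and the whole range was 2.14-fold. The difference was 0.16 (SE 0.26, 95% interval -0.43 to 0.75, limma adjusted p = 0.879), from 2.65 ± 0.37 in controls to 2.80 ± 0.46 in mutants (SD, n = 4 each). It was -0.32 within slide row 1 and 0.64 within row 2, so its direction differed between the rows.

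Reg3g, which shares the antibacterial role, stood at 0.57, -0.35, -0.09 and 0.41 in controls and at -0.10, 0.37, 0.12 and 0.59 in mutants, in the order of replicates. The groups covered nearly the same range. The difference was 0.11 (SE 0.23, 95% interval -0.42 to 0.64, limma adjusted p = 0.908), from 0.13 ± 0.43 to 0.24 ± 0.30 (SD, n = 4 each). As folds, the intervals run from 0.741 to 1.68 for Reg3b and from 0.748 to 1.56 for Reg3g, so a change of 2-fold in either direction lies outside both.

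Reg3b and Reg3g were well above background on all 8 arrays at this stage. Their levels varied together over the 8 arrays, with r = 0.70 and rho = 0.67, and r = 0.66 without mutant replicate 1. This is a description over 8 arrays in 2 groups. These 2 genes had the most similar sequences before the start (68.4%). Reg3a and Reg4, with the highest r of the tested members (0.71), had the least similar of all 21 pairs (44.9%). Without mutant replicate 1 the highest r was that of Reg3d and Reg3g (0.75). Whether the sequence before the start bears on varying together was not tested. Mutant replicate 4 and control replicate 1 were the 2 highest arrays for both Reg3b and Reg3g.

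Reg3d was the only tested member whose groups did not overlap. Its levels were -2.98, -3.31, -3.17 and -3.01 in control replicates 1 to 4 and -2.51, -2.93, -2.79 and -2.68 in mutant replicates 1 to 4. The lowest mutant lay 0.05 log2 units above the highest control. The scanner software puts the error of each of these spots at 10.3% to 10.9% of its signal, which is more than that gap. The means were -3.12 ± 0.15 and -2.73 ± 0.18 (SD, n = 4 each), a difference of 0.39 (SE 0.12, 95% interval 0.11 to 0.67). The unadjusted limma p was 0.0121, the adjusted p 0.828, and the fold 1.31 with an interval of 1.08 to 1.59. The difference was 0.43 within slide row 1 and 0.35 within row 2, and 0.28 to 0.46 over the 20 alternative settings. It failed the correction in each of them. Reg3d had the smallest within-group SD of the tested members, 0.16, larger than that of 34.3% of tested probes.

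Reg3a, a further Reg3 gene of the cluster, had levels of -4.33, -4.76, -4.64 and -4.60 in controls and -4.62, -5.01, -4.11 and -4.22 in mutants. Mutant replicates 3 and 4 were the highest arrays and mutant replicate 2 the lowest. The spot error on these arrays was 13.0% to 19.3%, the highest of any tested member. The difference was 0.09 (SE 0.20, 95% interval -0.37 to 0.55, limma adjusted p = 0.912), from -4.58 ± 0.18 to -4.49 ± 0.41 (SD, n = 4 each). It was -0.27 within slide row 1 and 0.45 within row 2.

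Reg4, the member tied to secretory cells, had levels of 3.39, 2.50, 3.55 and 3.37 in controls and 3.04, 2.91, 3.64 and 3.45 in mutants. The lowest of all 8 was control replicate 2, the Rfx6 fl/fl control. The difference was 0.06 (SE 0.26, 95% interval -0.53 to 0.65, limma adjusted p = 0.958), from 3.20 ± 0.48 to 3.26 ± 0.34 (SD, n = 4 each). The fold was 1.04, with an interval of 0.693 to 1.57. The direction was turned without control replicate 2 (-0.18), without mutant replicate 3 (-0.07) and without mutant replicate 4 (-0.01). On the same arrays 9 of the 15 endocrine genes passed as lower, Ghrl among them (mutant minus control -4.86 in log2, SE 0.17, limma adjusted p = 8.38e-06). Isl1, also among the 9, met the filter through the controls alone. For 5 of the 15 the mean was higher in mutants, and 0 of these passed. They were Neurog3 (0.76), Tph1 (0.60), Tac1 (0.54), Neurod1 (0.49) and Chgb (0.03). Whether Reg4 and the hormone genes differ in their response was not tested.

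**Figure D3:**
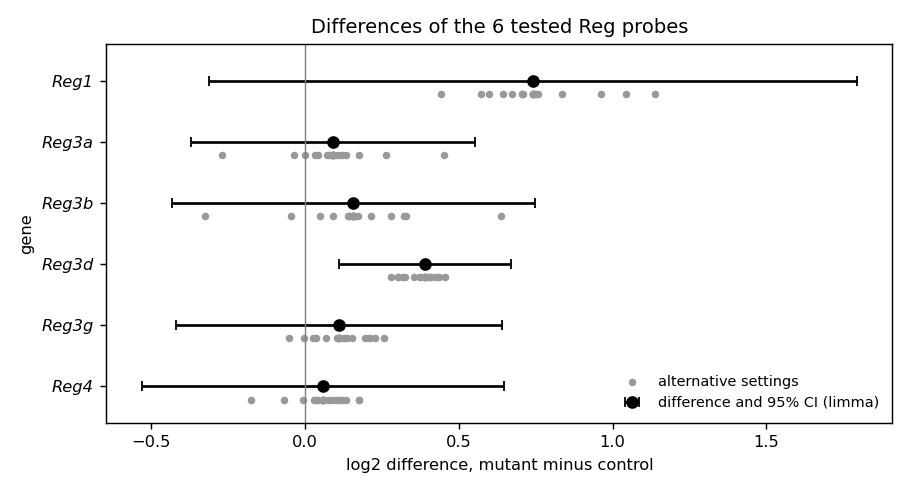
Difference between mutants and controls (x axis, log2, mutant minus control) for the 6 tested Reg genes, with black points and bars for the limma estimate and its 95% interval (4 arrays a group) and grey points for the 20 alternative settings. The interval includes 0 for each gene except Reg3d (0.11 to 0.67), which did not pass after adjustment (0.828).

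Over the 8 arrays, the tested members fell into no single order. Reg3a and Reg4, which lie on different chromosomes, varied together (r = 0.71, rho = 0.74, and r = 0.70 without mutant replicate 1). Reg1 varied with none of the Reg3 genes or Reg4 beyond an r of 0.44 (with Reg3d), and with Reg3b and Reg3g its r was -0.08 and 0.02. For Reg3d and Reg3g, r was 0.33 with all 8 arrays and 0.75 without mutant replicate 1. These arrays share a slide and a scan, and the values are descriptions with no test.

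The genes whose levels followed a member most closely were found by Pearson's r over the 8 arrays, among all tested probes with a plain gene symbol. For Reg1 they were Nr1i2, the pregnane X receptor (r = 0.943), Ccnyl1 (0.936) and Il4ra, the interleukin-4 receptor alpha chain (0.934). Without the 2 arrays farthest from the Reg1 median (mutant replicate 3 and control replicate 4), r was 0.960, 0.876 and 0.964.

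For Reg3b they were Abca8b (0.972), Rsrc1 (0.945) and Syt6 (0.945), and for Reg3g Ubxn7 (0.913), Fam35a (0.905) and Mnd1 (0.893). For Reg3d they were Gstm1, a glutathione transferase (0.978), Nit2 (0.977) and Rpl17, a ribosomal protein (0.976). For Reg3a they were Rrp15 (0.947), Snhg10 (0.933) and Taf3 (0.925), and for Reg4 Rps3a (0.927), Tmod4 (0.926) and Phgdh, an enzyme of serine synthesis (0.904). For Reg4, r fell to 0.797, 0.788 and 0.801 without control replicate 2 and mutant replicate 2, the 2 arrays farthest from its median. Each was picked as one of the highest of all values of r, and no p is given.

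The genes that act upstream of the Reg lectins and beside them in mucosal defence held no called gene. Of 26 genes for signals that induce Reg genes, with the candidate Reg receptor gene Extl3, 24 were tested and 0 passed; 12 had a higher mean in mutants, and the median difference was 0.00115. Il22, the cytokine gene, was at -4.74 ± 0.16 in controls and -4.89 ± 0.25 in mutants (SD, n = 4 each; difference -0.15, SE 0.14, limma adjusted p = 0.828). The largest differences were for Il22ra1 (0.40), Tlr2 (0.28) and Lif (-0.23). Il17a was above background nowhere. Extl3 differed by 0.13 (SE 0.12).

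Of 26 Paneth cell and mucosal defence genes, 23 were tested, 0 passed and 14 had a higher mean in mutants, with a median of 0.05. Largest were Retnlb (-1.91, SE 3.25), a resistin-like molecule of goblet cells whose levels ran from -6.17 to 4.98 with no regard to group, Saa2 (-0.66) and S100a9 (0.60). Of the 11 goblet genes, 0 passed and 9 had a higher mean in mutants (median 0.05), with Atoh1 (0.22), Zg16 (-0.20) and Spdef (0.14) farthest from 0. Of 11 immune cell genes, 9 were tested and 0 passed (median 0.12), and of 6 islet genes 0 passed (median 0.00125), Iapp being lowest (-1.74, limma adjusted p = 0.0885).

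**Figure D4:**
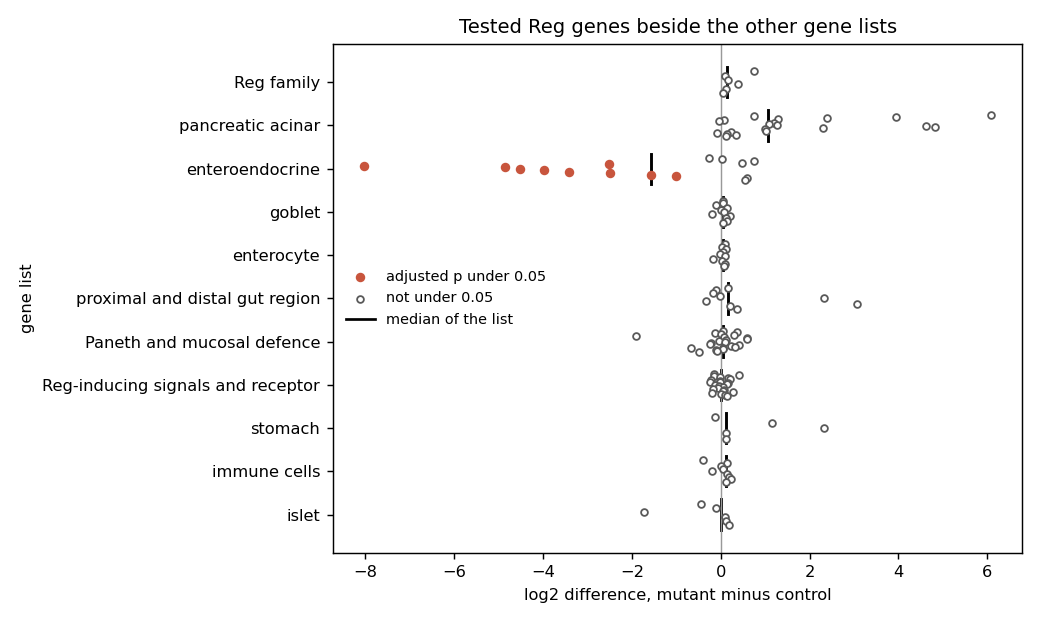
Difference between mutants and controls (x axis, log2, mutant minus control) for the tested genes of the Reg family and of the 10 other lists (y axis), with each point a gene, filled red where the limma adjusted p was under 0.05, and a black line at the median of each list. The 6 Reg genes lie between 0.06 and 0.74 and none is filled; 9 of 15 endocrine genes are filled, all lower, and the acinar median lies at 1.06.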

How the data were processed

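Per the labels' protocols, 100 ng of total RNA per embryo was amplified and labelled with cyanine 3. Per the file headers, the authors read 1 slide in 1 scan with Feature Extraction 10.10.1.1 (design 028005, mm9) and deposited linear intensity values, background-subtracted and detrended within the array and not scaled between arrays. The value table they deposited holds linear intensity too. Its columns share 1 median (123), its processing is not given in the sources used here, and it served as an alternative.

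Here each array was scaled to the 75th percentile of its 59305 non-control spots and put in log2, outlier spots were dropped (none of a Reg probe) and spots of a probe averaged. The 35472 probes well above background on at least 4 of 8 arrays were tested with limma 3.58.1 in R 4.3.3, two-sided, no covariates, Benjamini-Hochberg over all probes, threshold 0.05. The limma fit alone was tried on simulated data with independent normal noise. Scaling, spot averaging and the background filter were not part of that simulation. The labels do not say whether embryos shared a litter, so p-values measure the spread between these samples. The number of arrays limits precision.

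Named genes are all members, the 3 genes most like each tested member, and genes from 10 lists (149 genes, best tested probe per gene). From the lists these are the called genes and those with the 3 largest differences. Not all 3 are named for the gut region, stomach and islet lists, and none for the enterocyte and immune lists. Others are shown beside results after their values were seen. They are Spink3, Ptf1a, Cela2a, Pnliprp2, Pnlip, Slc10a2, Il22, Il17a, Extl3, Tff1, Gkn2, Gif, Sox2, Neurog3, Neurod1, Tph1, Tac1 and Chgb. The members and lists were chosen with earlier results of these data known. Replicate numbers are shared between the groups, but deviations of same-numbered arrays correlated at -0.087, 0.089, 0.0031 and 0.098, so the numbers were not taken as pairs.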

Additional observations from a re-analysis of the deposited data

Results flagged for a closer look

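Of 20 groups of 4 arrays checked for an array far from the other 3 (the 7 Reg probes and 3 array measures in each group), 1 held one, and chance gives about 1 at 1 in 20. It was the correlation of mutant replicate 1 with the remaining arrays, which averaged 0.975 where each other mutant averaged 0.989 to 0.990. That array carries the highest Reg2 level, and no level of a Reg probe was itself that far from its group.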

How the results depend on the processing

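No Reg probe was called in any of 20 alternative settings, including the replicate block (0 Reg probes, 7 probes in all). Settings that changed only the filter, or added a block for slide row or replicate, repeated the main difference, so the direction could not turn. With these counted, 111 of 120 values for the 6 tested members kept their direction. The other 9 were Reg3a (-0.27) and Reg3b (-0.32) within slide row 1, and values on leaving out 1 array, which ranged from -0.034 to 0.26 for Reg3a, -0.044 to 0.33 for Reg3b, -0.051 to 0.26 for Reg3g and -0.18 to 0.18 for Reg4. The direction turned without mutant replicate 3 (Reg3a, Reg4), mutant replicate 4 (Reg3b, Reg3g, Reg4) and control replicate 2 (Reg3g, Reg4). Reg2, with no test, kept its direction in 18 settings, those that repeated the main difference included. It ran from 0.02 within slide row 2 to 3.35 within row 1, and was 0.45 under normexp and 0.52 in the deposited table. The filter to all 8 arrays and that to 1 probe per gene, which require a tested probe, gave no Reg2 value. Over all probes, 15 were called in the main setting, 24 under normexp, 39 with array weights, 5 and 4 within slide rows 1 and 2, and 9 to 20 without 1 array (9 without control replicate 2 or mutant replicate 3). The share of higher means was 51.0% to 62.2% over the settings. The cause of these moves was not tested. With 4 arrays a group, the Reg1 interval still spans 0.805 to 3.47 as a fold, and a dim probe such as Reg2 has only bounds.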
